A study of Mus musculus with 12 samples.

Results

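The genes described here are 10 genes of the amino acid stress response that is driven by the transcription factor ATF4: Atf4, Ddit3, Trib3, Chac1, Asns, Psat1, Phgdh, Shmt2, Mthfd2 and Sesn2. They were found by matching the gene identifiers of the deposited expression table to mouse symbols, which gave 10 of the 54532 genes in the table. Their levels were compared in bone marrow mesenchymal stem cells (MSCs, the stromal cells of marrow that can give rise to bone and fat) of C57BL/6 mice aged 4 weeks, with or without a deletion of Chd7, a chromatin remodelling factor. There were 12 RNA-seq libraries in 4 groups of 3. The control groups, labelled WT, came from Chd7 fl/fl mice, whose Chd7 alleles carry loxP sites, and the knockout groups came from Prx1-cre;Chd7 fl/fl mice, in which the Prx1 promoter drives Cre in the limb bud mesenchyme, so that cells of other origin in the marrow keep Chd7. All cells were at passage 3 and were collected 5 days after the start of induction. The osteogenic groups received dexamethasone at 10 nM with β-glycerophosphate at 10 mM and ascorbic acid at 50 µM. The adipogenic groups received dexamethasone at 1 µM with isobutylmethylxanthine at 0.5 µM and insulin at 10 µg/ml, so the media differ in dexamethasone as well as in the other agents, and no uninduced library was analysed here.

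When amino acids run short, when unfolded protein collects in the endoplasmic reticulum, or under some other stresses, kinases phosphorylate the translation initiation factor eIF2α, which slows translation in general while the Atf4 mRNA is translated more. ATF4 protein then binds DNA together with partners of the C/EBP family and switches on genes for amino acid synthesis, uptake and tRNA charging. Osteoblasts, which secrete large amounts of collagen, depend on ATF4 for amino acid supply. Because ATF4 is controlled to a large part at translation, its mRNA level is not a measure of its protein, which was not measured here.

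The composite DNA element of this response was looked for as TGATGNAA on either strand in the RefSeq promoter windows of GRCm38.p6, which reach from 250 bases before to 50 bases after each gene's start. All 10 genes had a window, and 3 of them, Trib3, Chac1 and Asns, held a match. Over all genes with a window, 1219 of 27025 held one (4.51%), and counted by window 1304 of 32851 did (3.97%). The stretches around the 3 matches are shown because these genes carry the letters of the element near their start. Each is written 5′ to 3′ along the gene's own strand, with the match in capitals.
Asns, chr6:7693210-7693292, minus strand: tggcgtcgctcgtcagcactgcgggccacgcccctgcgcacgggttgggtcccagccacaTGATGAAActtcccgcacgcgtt
Chac1, chr2:119350992-119351086, plus strand: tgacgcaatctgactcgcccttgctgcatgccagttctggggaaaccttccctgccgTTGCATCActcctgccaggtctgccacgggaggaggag
Trib3, chr2:152344028-152344057, minus strand: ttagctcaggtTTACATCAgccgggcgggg
Counted from the RefSeq start, the Asns match lay 23 to 16 bases before it, the Chac1 match 193 to 186 bases before it and the Trib3 match 14 to 21 bases after it. GENCODE M21 places the starts elsewhere, at 7693254 for Asns and 152344032 for Trib3. By those starts the Asns match lies inside the gene and the Trib3 match before it. In Chac1 and Trib3 the element read on the opposite strand. A match is a description of the letters and not evidence of binding, and elements may lie outside these windows.

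In GENCODE M21 on GRCm38, all 10 genes are protein coding. Atf4 lies on chromosome 15 (80255184 to 80257541), Asns on chromosome 6 (7675169 to 7693254), Phgdh on chromosome 3 (98313170 to 98339990), Psat1 on chromosome 19 (15904678 to 15947337), Sesn2 on chromosome 4 (132492032 to 132510501), Mthfd2 on chromosome 6 (83305691 to 83325908), and Trib3 (152337422 to 152344032) and Chac1 (119351229 to 119354381) both on chromosome 2. Ddit3 (127290774 to 127296288) and Shmt2 (127517123 to 127522444) both lie on chromosome 10. Exons of Ddit3 share 68 bases with the opposite-strand gene Mars and 13 with Gm4189, and exons of Shmt2 share 32 bases with the opposite-strand gene Ndufa4l2. The use of strand in counting is not given in the sources used here, so reads on those bases cannot be told apart. The table holds another entry named Ddit3, a model of 105 exonic bases that all lie in exons of the gene, which was at 0 in every library and was left out.

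Values are FPKM, fragments scaled to the length of the gene's exons and to the mapped fragments of the library, as the authors deposited them, and are comparable between genes because they are per length. Between 17490797 and 21093450 fragments per library could be recovered on genes, and a single value of the 10 genes rested on 86 (Chac1) to 4886 (Phgdh) fragments. Differences are given as knockout minus control or adipogenic minus osteogenic on the log2(FPKM + 1) scale, with the standard error (SE) of the fit, and a gene was called at a Benjamini-Hochberg adjusted p under 0.05 from limma over 12871 genes. Nothing in the sources says whether the 3 libraries of a group came from separate mice, so the p-values measure the spread between these samples, which may be technical.

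Some facts about the libraries bear on all results. Control adipogenic replicate 2 stood apart: its log2 values correlated with the other 2 libraries of its group at a mean r of 0.941, against 0.964 and 0.966 for those 2, and 0.981 to 0.991 for libraries of the other groups. It correlated more with the libraries of the control osteogenic (mean r 0.981), knockout osteogenic (0.983) and knockout adipogenic (0.967) groups than with its own, while the other 2 control adipogenic libraries correlated best with their own group. Whether its label is right cannot be told from these values, and why it stood apart was not tested. Its summed level of 9 macrophage markers was 7944 FPKM, against 17682 and 18000 in the other control adipogenic libraries. Calls of the 10 genes that changed without this library are given with and without it. Chd7 itself stood at 2.69 ± 0.068 FPKM (SD, n = 3) in the control and 2.22 ± 0.166 in the knockout osteogenic group (difference -0.20, adjusted p = 0.160), and at 2.10 ± 0.255 and 2.29 ± 0.235 in the control and knockout adipogenic groups (difference 0.09, adjusted p = 0.428). A gene-level value includes exons that the deletion leaves in place, so it does not check the knockout, and the groups are called knockout by their labels. Macrophage genes were abundant in every group, with Lyz2 between 3845 and 14411 FPKM, while the 8 stromal markers summed to between 403 and 565 FPKM. Most of the stromal sum was Itgb1, at 317 to 412 FPKM, so the sum mainly follows that gene. Of the adipocyte markers, Adipoq, Plin1, Cidec and Lep had group means of at most 0.360 FPKM in all 4 groups. Fabp4 was lower in adipogenic than in osteogenic control libraries (-1.18, adjusted p = 0.000548). In knockout libraries Fabp4 was higher in adipogenic than in osteogenic medium (0.79, adjusted p = 0.00193). Of the 3 adipocyte markers tested there, 1 was called higher and 0 lower, with a median difference of 0.43. Cebpa went the other way and was not called, at 99.8 to 104.3 FPKM in knockout osteogenic and 53.0 to 89.3 in knockout adipogenic libraries. In control libraries Cebpa was also lower in adipogenic medium (-1.07, adjusted p = 0.0116). Knockout against control, Fabp4 was higher in adipogenic medium (1.29, adjusted p = 9.8e-05) and lower in osteogenic medium (-0.68, adjusted p = 0.0118). Of 6 osteoblast markers, 3 were higher and 1 lower in adipogenic than in osteogenic medium in control libraries, beside 10.5 and 12.3% of all genes tested. In knockout libraries 6 were higher and 0 lower, beside 13.9 and 14.0%. Among them Alpl lay between 4.41 and 6.62 FPKM in osteogenic and between 22.0 and 57.5 in adipogenic libraries. The media are therefore named here by their agents and not by the state of the cells. In bulk samples, fewer cells of a type and less RNA per cell cannot be told apart.

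**Figure D1:**
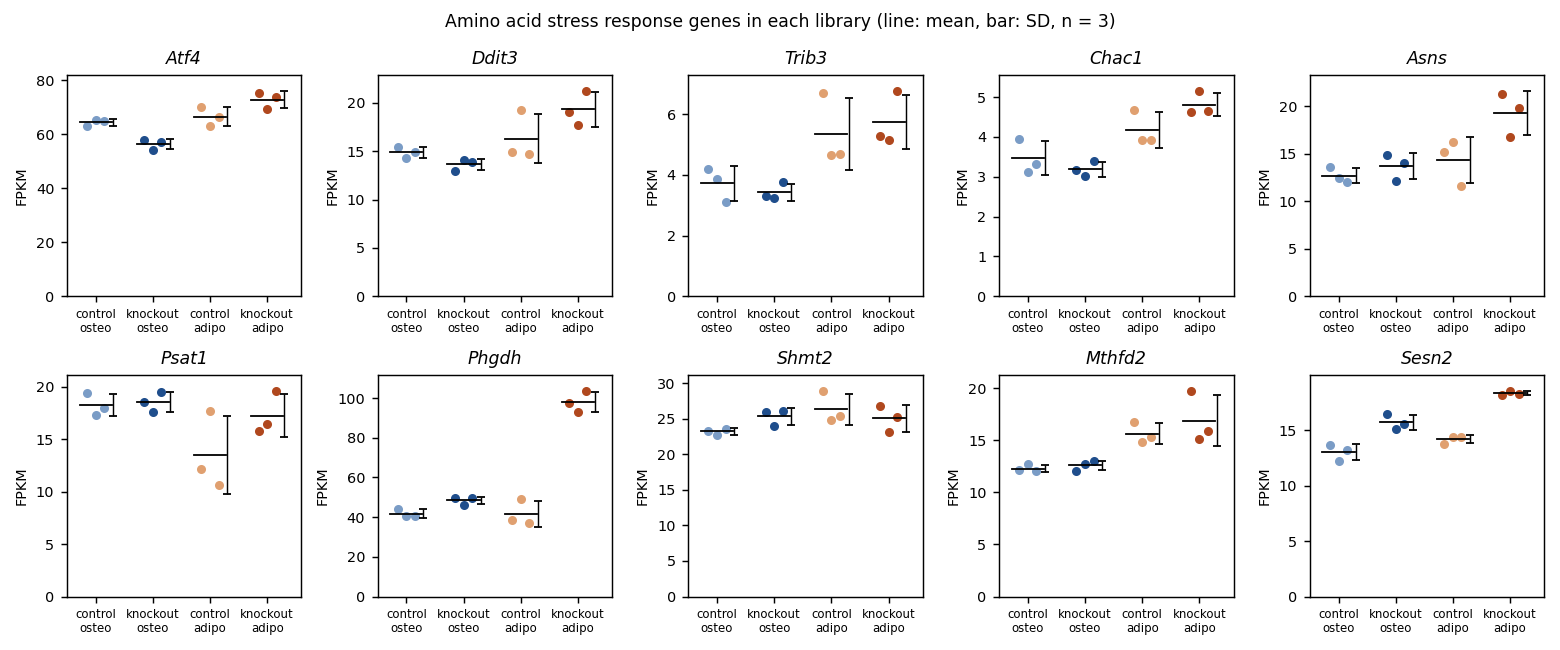
FPKM (y axis, from 0, with a scale of its own in each panel) of the 10 amino acid stress response genes in each of the 12 libraries; points are libraries, lines are group means and bars are the SD of 3 libraries. The 3 knockout adipogenic libraries stand far above all others for Phgdh, and also lie above all others for Sesn2 and Asns, while Shmt2 hardly moves between groups.

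The order of levels was similar in 3 of the groups. Atf4 came first, at 64.6 ± 1.27 FPKM in control osteogenic, 56.5 ± 1.92 in knockout osteogenic and 66.6 ± 3.46 in control adipogenic libraries (SD, n = 3 in each), and Phgdh came next, at 41.7 ± 2.12, 48.5 ± 1.86 and 41.5 ± 6.56. In the knockout adipogenic group this order was inverted, with Phgdh at 98.0 ± 5.18 and Atf4 at 72.9 ± 3.18, and the ranges of the libraries did not overlap. Shmt2 was the third in every group, at 23.2 to 26.3 FPKM. Ddit3, Asns, Psat1, Mthfd2 and Sesn2 lay between 12.3 and 19.3. In both adipogenic groups the libraries of neighbours among these 5 overlapped throughout, while in the osteogenic groups Psat1 stood clear above the gene next to it. Trib3, at 3.42 to 5.73, and Chac1, at 3.19 to 4.81, were the lowest in all 4 groups, and their libraries overlapped each other in every group. Over the 12 libraries, the highest value of a gene exceeded its lowest by 1.27 times for Shmt2 and 1.39 times for Atf4, by 2.19 times for Trib3 and by 2.81 times for Phgdh.

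In osteogenic medium, the comparison of knockout with control asks whether the amino acid stress genes differ when Chd7 is deleted in cells given the osteogenic agents. Of the 10 genes, 1 rose and 1 fell: Sesn2 was 1.21 times and Atf4 0.874 times the control mean. The share called, 20%, stands beside 9.09% of all genes tested in this comparison (4.94% higher and 4.15% lower). The median difference of the 10 genes was 0.03, against -0.01 over all genes tested.

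Atf4, the factor that drives the response, measured 63.1, 65.5 and 65.1 FPKM in the control osteogenic libraries and 58.0, 54.3 and 57.1 in the knockout libraries. All knockout values lay below all control values. The difference was -0.19 (SE 0.05, adjusted p = 0.0425). The call was close to the threshold, since leaving out any 1 of the 6 libraries ended it (adjusted p 0.0851 to 0.145), as did testing without the filter on low values (0.0717), without the trend (0.0566) or with rescaling to the same sum of FPKM (0.191).

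Sesn2, a leucine-binding protein that restrains mTORC1 signalling, measured 13.6, 12.3 and 13.2 FPKM in control and 16.4, 15.1 and 15.6 in knockout osteogenic libraries. Again the groups did not overlap, and here the knockout was the higher (0.25, SE 0.05, adjusted p = 0.0094). The call held with any 1 library left out (adjusted p at most 0.0469). It was lost when each library was rescaled to the same sum of FPKM (adjusted p = 0.173), where the difference stayed at 0.26.

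The other 8 genes were not called. Phgdh, the entry enzyme of serine synthesis, had the largest difference among them (0.21, 95% interval 0.0030 to 0.42, adjusted p = 0.208), with 44.2, 40.4 and 40.6 FPKM in control and 49.4, 46.3 and 49.7 in knockout libraries, which did not overlap. It was called when only the libraries compared were fitted (adjusted p = 0.0169), and under none of the other 6 settings. Over all genes tested the groups did not overlap in 44.3%, and among the 10 genes they did not overlap in 5. For Ddit3, Trib3, Chac1, Asns, Psat1, Shmt2 and Mthfd2 the differences lay between -0.12 and 0.12. The macrophage marker sum was 11567 to 12067 FPKM in the control and 13384 to 13638 in the knockout osteogenic libraries, and the stromal sum 403 to 409 and 461 to 482. The macrophage sum was made up mostly of Lyz2, at 9182 FPKM on average in control and 11113 in knockout libraries, while of the 9 markers 0 were called higher and 1, Csf1r, was lower (-0.68, adjusted p = 0.0136), with a median difference of -0.13. Their part in these differences was not tested.

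In adipogenic medium, the comparison asks the same in cells given the adipogenic agents. Of the 10 genes, 3 rose: Phgdh to 2.36 times, Asns to 1.35 times and Sesn2 to 1.29 times the control mean. The number that fell was 0, also by voom and at an unadjusted p under 0.05. The 3 genes called make up 30%, beside 33.2% of all genes tested (16.7% higher and 16.5% lower), so the share called was near the background. The median difference of the 10 genes was 0.20, against -0.01 over all genes tested, and 9 of the 10 differences were positive. The groups did not overlap for 3 of the 10 genes and for 38.6% of all genes tested.

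Phgdh measured 38.8, 49.0 and 36.8 FPKM in the control and 97.4, 93.1 and 103 in the knockout adipogenic libraries. The lowest knockout library was well above the highest control library, which was replicate 2. The difference was 1.23 (SE 0.09, adjusted p = 1.6e-05). It was called under all 7 other settings (1.23 to 1.43) and with any 1 library left out, and without control adipogenic replicate 2 it was 1.35. PHGDH turns the glycolytic intermediate 3-phosphoglycerate toward serine.

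The enzymes that follow PHGDH moved less. Psat1, the transaminase of the next step, measured 12.2, 17.6 and 10.6 FPKM in control and 15.8, 16.4 and 19.6 in knockout adipogenic libraries. The high control value again belonged to replicate 2, and the groups overlapped (0.36, SE 0.15, adjusted p = 0.0904). Without that library the difference was 0.55 and was called (adjusted p = 0.000786). Psph, the phosphatase that completes serine, was not among the 10 genes and rose by 0.27 (adjusted p = 0.0178).

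Asns, which makes asparagine from aspartate and glutamine, measured 15.2, 16.2 and 11.6 FPKM in control and 21.3, 16.8 and 19.9 in knockout adipogenic libraries. The groups did not overlap, though the lowest knockout library was close to the highest control library (0.41, SE 0.12, adjusted p = 0.0289). The call was lost without control replicate 3, knockout replicate 1 or knockout replicate 3 (adjusted p 0.0870 to 0.0897), and also without the filter on low values (0.0612) and when only the libraries compared were fitted (0.115).

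Sesn2 was tight within each group, with 13.8, 14.4 and 14.4 FPKM in control and 18.2, 18.5 and 18.3 in knockout adipogenic libraries. The difference was 0.35 (SE 0.05, adjusted p = 0.000516) and was called under all 7 other settings and with any 1 library left out. Sesn2 was called in both media, as Phgdh was when only the libraries compared were fitted. Its genotype difference did not differ between the media by the interaction test (0.09, 95% interval -0.06 to 0.24, adjusted p = 0.348).

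Atf4 measured 70.04, 63.1 and 66.5 FPKM in control and 75.5, 69.4 and 73.9 in knockout adipogenic libraries. The groups overlapped by 1 library (0.13, SE 0.05, adjusted p = 0.0705). It was called without control replicate 1 (0.17, adjusted p = 0.0460) and with libraries rescaled to the same sum of FPKM (0.32, adjusted p = 0.00973), a rescaling that also moved the median of all genes by 0.17.

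Ddit3, which encodes CHOP, a factor linked to cell death under lasting stress, measured 15.0, 19.2 and 14.7 FPKM in control and 19.0, 17.7 and 21.2 in knockout adipogenic libraries. With replicate 2 as the highest control library the difference was 0.24 (adjusted p = 0.0806), and without it 0.36 (adjusted p = 0.00163). Trib3, a pseudokinase induced by ATF4 and CHOP (0.09, adjusted p = 0.648), and Chac1, which degrades glutathione (0.17, adjusted p = 0.143), were not called. Without control adipogenic replicate 2 the difference of Trib3 was 0.02 (adjusted p = 0.933), and Chac1 was called with libraries rescaled to the same sum of FPKM (0.37, adjusted p = 0.0374).

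The mitochondrial folate enzymes were also not called. Shmt2, which passes a carbon from serine to folate, had a difference of -0.07 (95% interval -0.22 to 0.08, adjusted p = 0.479), and Mthfd2, which oxidises the resulting folate, of 0.10 (95% interval -0.09 to 0.29, adjusted p = 0.414). Their groups overlapped, and without control adipogenic replicate 2 the differences were -0.11 and 0.06, also not called. For both genes the intervals exclude a difference of the size seen for Phgdh.

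Beside these values, the macrophage marker sum was 7944 to 18000 FPKM in the control and 5613 to 7147 in the knockout adipogenic libraries, and 7 of the 9 markers were lower in the knockout, among them Csf1r, the receptor for CSF1 (-0.80, adjusted p = 0.00186). The stromal sum was 449 to 455 and 526 to 565, and of the 6 stromal markers tested 4 were called higher and 1 lower. The proliferation genes summed to 181 to 354 and 200 to 228, and of these 10 genes 5 fell, among them Tyms (-0.46) and Ccnb1 (-0.70), and 1 rose, Rrm2 (0.99, adjusted p = 0.00235), with a median of -0.51. Without control adipogenic replicate 2, 6 fell and 1 rose, beside 51.0% of all genes tested called in either direction. With rescaling to the same sum of FPKM 1 fell and 1 rose. Ribosomal protein genes took 4.31 to 5.92% of FPKM in control and 6.20 to 6.48% in knockout libraries. The part of these shifts in the differences of the 10 genes was not tested.

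**Figure D2:**
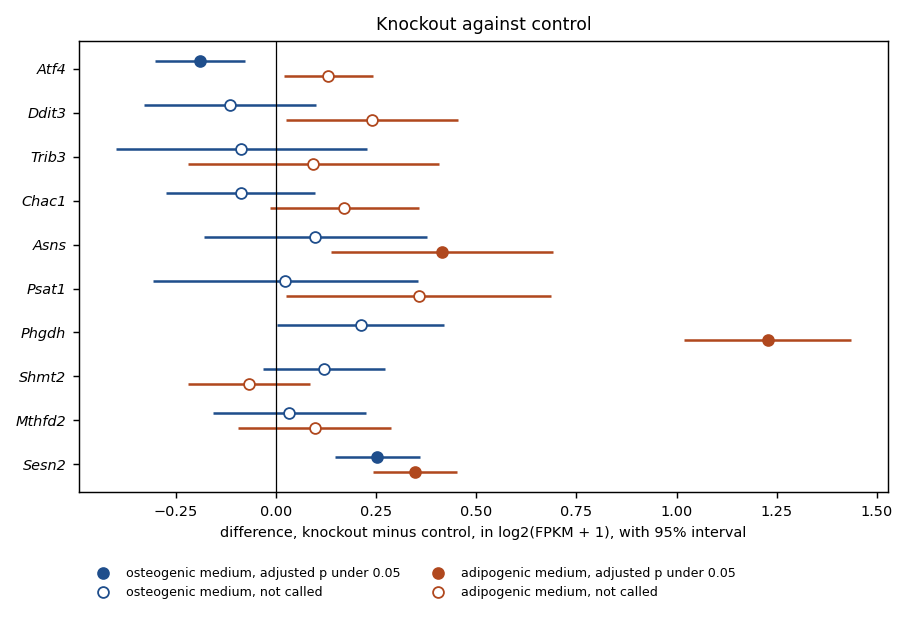
Difference between knockout and control (x axis, log2(FPKM + 1), with 95% intervals) for each of the 10 genes in osteogenic and adipogenic medium; filled points have an adjusted p under 0.05. Phgdh in adipogenic medium (1.23) stands apart from all other points, and Atf4 lies below 0 in osteogenic medium (-0.19) and above 0 in adipogenic medium (0.13).

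The genotype difference itself depended on the medium for 2 of the 10 genes by the interaction test, beside 20.4% of all genes tested (10.9% higher and 9.58% lower). Phgdh had an interaction of 1.02 (SE 0.13, adjusted p = 0.00074). For Atf4, whose difference was negative in osteogenic and positive in adipogenic medium, it was 0.32 (SE 0.07, adjusted p = 0.0114). Both were called under all 6 other settings and with any 1 of the 12 libraries left out. The interaction was not called for the other 8 genes, among them Ddit3 (0.35, adjusted p = 0.0939) and Asns (0.32, adjusted p = 0.232). Without control adipogenic replicate 2, Ddit3 (0.47, adjusted p = 0.00244) and Psat1 (0.53, adjusted p = 0.00719) were called as well, beside 42.2% of all genes tested.

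Adipogenic and osteogenic medium were then compared within each genotype. In control libraries 1 of the 10 genes was called, beside 22.8% of all genes tested (10.5% higher and 12.3% lower), and in knockout libraries 8 of the 10 were called, all higher in adipogenic medium, beside 27.9% of all genes tested (13.9% higher and 14.0% lower). The median difference was 0.13 in control and 0.43 in knockout libraries, with all-gene medians of 0.01 and 0.00. The counts do not by themselves show that the genotypes differ: the test of that difference is the interaction, which was called for Phgdh and Atf4 and not for the other 6 of the 8.

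In control libraries Mthfd2 measured 12.2, 12.7 and 12.0 FPKM in osteogenic and 16.8, 14.8 and 15.3 in adipogenic medium. The media did not overlap, and the difference was 0.32 (SE 0.09, adjusted p = 0.0247). Leaving out any 1 of 5 of the 6 libraries ended the call (adjusted p 0.0572 to 0.0920), as did 3 of the other settings, and without control adipogenic replicate 2 it held. Without that library 5 genes were called: Mthfd2, Trib3 (0.49), Chac1 (0.25) and Shmt2 (0.21) were higher and Psat1 (-0.63) was lower in adipogenic medium. Beside these 5 stand 47.8% of all genes tested without that library, so the share called was near the background. Phgdh was at 41.7 and 41.5 FPKM on average in the control libraries of the media (-0.02, 95% interval -0.23 to 0.19, adjusted p = 0.918).

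In knockout libraries Phgdh measured 49.4, 46.3 and 49.7 FPKM in osteogenic medium, and in adipogenic medium every library was near 100 FPKM as given above, a difference of 1.00 (SE 0.09, adjusted p = 5.96e-05). Trib3 rose from 3.30, 3.23 and 3.75 to 5.29, 5.14 and 6.76 FPKM (0.60, SE 0.14, adjusted p = 0.0104). Chac1 rose from 3.16, 3.01 and 3.39 to 4.62, 5.15 and 4.66 FPKM (0.47, SE 0.08, adjusted p = 0.00243). In none of these genes did the media overlap.

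Ddit3 rose in knockout libraries from 12.999, 14.1 and 13.9 to 19.0, 17.7 and 21.2 FPKM (0.47, SE 0.10, adjusted p = 0.00523), and Atf4 from 56.5 ± 1.92 to 72.9 ± 3.18 FPKM (0.36, SE 0.05, adjusted p = 0.000624). Asns rose by 0.47 (adjusted p = 0.0193), a call that was lost without knockout osteogenic replicate 2, knockout adipogenic replicate 1 or knockout adipogenic replicate 3 (adjusted p 0.0629 to 0.0766). Mthfd2 rose by 0.39 (adjusted p = 0.00776) and Sesn2 by 0.21 (adjusted p = 0.00875). With rescaling to the same sum of FPKM, Asns (adjusted p = 0.0543) and Sesn2 (adjusted p = 0.0536) were not called. The 3 genes with the promoter element shown above, Trib3, Chac1 and Asns, were among the 8 that rose, as were 5 genes without it.

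Psat1 (-0.10, 95% interval -0.43 to 0.23) and Shmt2 (-0.02, 95% interval -0.17 to 0.14) were not called in knockout libraries. Among all genes tested the media did not overlap in 52.5% in knockout and 34.4% in control libraries, and among the 10 genes in 8 and 4. The macrophage sum was 13384 to 13638 FPKM in knockout osteogenic and 5613 to 7147 in knockout adipogenic libraries, and the stromal sum 461 to 482 and 526 to 565. Most of the macrophage sum was Lyz2, at 11033 to 11249 FPKM in osteogenic and 3845 to 5010 in adipogenic medium. Of the 9 macrophage markers 2 were called lower and 0 higher, with a median difference of -0.37. Of the 10 proliferation genes 8 were lower and 1 higher in adipogenic medium, among them Top2a (-1.19, adjusted p = 0.00126). Of the 6 osteoblast markers 6 were higher and 0 lower in adipogenic medium, with a median difference of 0.79, beside 13.9% of all genes tested higher. Over 13 other settings 4 to 6 of them were higher. Whether these shifts bear on the rise of the 8 genes was not tested.

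**Figure D3:**
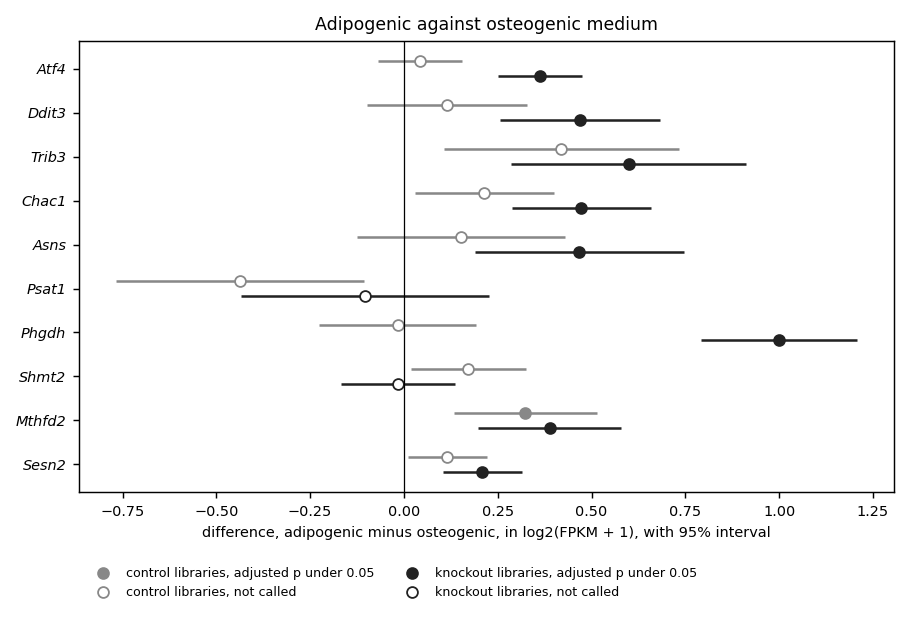
Difference between adipogenic and osteogenic medium (x axis, log2(FPKM + 1), with 95% intervals) for each of the 10 genes in control and knockout libraries; filled points have an adjusted p under 0.05. In knockout libraries 8 points are filled, all to the right of 0, and in control libraries only that of Mthfd2 (0.32).

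Other genes of the pathway were described from lists of their own. Beside their counts for the knockout stand 4.94% of all genes tested higher and 4.15% lower in osteogenic medium, and 16.7% higher and 16.5% lower in adipogenic medium. Without control adipogenic replicate 2, 51.0% of all genes tested were called for the knockout in adipogenic medium, counting both directions. Rescaling to the same sum of FPKM moved the median of all genes by 0.17 in that comparison. Of the 14 genes of the eIF2 cycle, all tested, 0 were called in osteogenic medium by limma, with 1 higher and 3 lower at an unadjusted p under 0.05 and 0 called by voom on recovered fragments, and in adipogenic medium 4 rose and 1 fell in the knockout. The latter count was 8 higher and 1 lower with rescaling to the same sum of FPKM, and 5 higher and 3 lower without control adipogenic replicate 2. Eif2b2 (0.34), Eif2b3 (0.24) and Impact (0.22) rose: the Eif2b genes encode subunits of the exchange factor that recycles eIF2, and IMPACT restrains the amino acid sensing kinase GCN2. Eif2ak2, the kinase PKR, which responds to double-stranded RNA, fell by 1.01 (adjusted p = 0.0382): it measured 29.8, 9.31 and 26.7 FPKM in control and 9.83, 8.89 and 9.12 in knockout adipogenic libraries. Control replicate 2 lay at the knockout level, and without it the difference was -1.51. Eif2ak4, which encodes GCN2, was lower in adipogenic than in osteogenic medium in control (-0.40, adjusted p = 0.00591) and in knockout libraries (-0.27, adjusted p = 0.0217), and with rescaling to the same sum of FPKM the call was kept in control (-0.57, adjusted p = 0.0208) and lost in knockout libraries (-0.24, adjusted p = 0.236).

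Among 11 regulatory factors of the response, 1 rose and 2 fell in the knockout in osteogenic medium, and 2 rose and 1 fell in adipogenic medium, where 4 were higher and 4 lower without control adipogenic replicate 2. Cebpg, a partner of ATF4 on DNA, measured 12.9, 12.9 and 11.5 FPKM in control and 8.92, 9.76 and 9.29 in knockout osteogenic libraries (-0.38, adjusted p = 0.0050), and 8.21, 9.14 and 8.86 in control and 10.6, 11.4 and 11.9 in knockout adipogenic libraries (0.33, adjusted p = 0.00325). Its groups did not overlap in either medium, and its interaction was 0.71 (adjusted p = 0.000569). With rescaling to the same sum of FPKM the osteogenic call was lost (-0.41, adjusted p = 0.0628) and the adipogenic call was kept (0.54, adjusted p = 0.00462). Like Atf4 it was lower with the knockout in osteogenic medium, while in adipogenic medium it passed the test and Atf4 did not.

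Atf3, another stress-induced factor of the ATF family, fell in the knockout in both media (-0.48, adjusted p = 0.0282, and -1.07, adjusted p = 0.000124). It went from 85.4, 66.0 and 73.4 to 29.4, 37.4 and 38.9 FPKM in adipogenic medium. Ddit4, which restrains mTORC1 as Sesn2 does, rose in the knockout in adipogenic medium (0.78, adjusted p = 0.0311). It measured 41.9, 21.9 and 38.5 FPKM in control and 40.7, 69.3 and 66.6 in knockout adipogenic libraries, so the groups overlapped. Without control replicate 2 the rise was 0.50 (adjusted p = 0.0467). In osteogenic medium Ddit4 was lower in the knockout, at 24.2, 21.5 and 24.2 FPKM against 42.5, 39.2 and 41.7, and was not called. Its interaction was 1.58 (adjusted p = 0.010). Sesn3, a relative of Sesn2, rose in osteogenic medium (0.54, adjusted p = 0.00252) and had a negative interaction (-0.67, adjusted p = 0.00265).

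Of 9 amino acid transporters tested, 1 rose and 3 fell in the knockout in adipogenic medium (1 and 4 without control adipogenic replicate 2). Slc7a11, the cystine transporter, had 47.4, 1.88 and 59.6 FPKM in control and 3.29, 0.739 and 0.737 in knockout adipogenic libraries. Control replicate 2 lay within the range of the knockout libraries, and the difference was -3.12 with it (adjusted p = 0.0281) and -4.53 without it. In both osteogenic groups Slc7a11 was between 1.14 and 1.57 FPKM. Slc7a1, a transporter of cationic amino acids, rose by 0.38 (adjusted p = 0.00182), from 5.61, 6.54 and 5.26 to 7.59, 7.97 and 7.86 FPKM. Slc6a9, a glycine transporter, fell by 0.51 (adjusted p = 0.00484), and Slc38a1 fell by 0.30 (adjusted p = 0.00241), a call that rescaling to the same sum of FPKM ended.

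Of 11 other enzymes of amino acids and folate tested, 4 rose and 2 fell in the knockout in adipogenic medium (5 and 3 without control adipogenic replicate 2). Got1 (0.44) and Gpt2 (0.30), transaminases that exchange nitrogen between glutamate and aspartate or alanine, rose with Psph. Mthfd1l, the mitochondrial enzyme that releases formate after the step of MTHFD2, rose in the knockout in osteogenic medium, from 5.98, 5.90 and 6.31 to 9.34, 8.58 and 9.35 FPKM (0.51, adjusted p = 0.0285), and fell in adipogenic medium, from 13.03, 8.44 and 11.8 to 5.07, 4.46 and 5.23 FPKM (-1.01, adjusted p = 0.000258). The groups did not overlap in either medium, and the interaction was -1.52 (adjusted p = 0.000319), opposite in sign to that of Phgdh. Aldh1l1, which removes carbon from cytosolic folate, fell in adipogenic medium (-0.44, adjusted p = 0.000729).

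Of 20 cytosolic tRNA synthetases, which load amino acids onto tRNAs, 0 were called in the knockout in osteogenic medium by limma, with 2 higher and 0 lower at an unadjusted p under 0.05 and 0 called by voom, and in adipogenic medium 6 rose and 3 fell. Sars, for serine, rose from 27.8, 29.9 and 27.2 to 38.1, 36.5 and 38.8 FPKM (0.41, adjusted p = 0.00022). Mars, for methionine, rose by 0.32 and Nars, for asparagine, by 0.22, while Farsb (-0.25), Eprs (-0.26) and Lars (-0.13) fell. With libraries rescaled to the same sum of FPKM, a rescaling that moved the median of all genes by 0.17, 13 were higher and 0 lower. Lars then turned positive (0.06), and Farsb (-0.08, adjusted p = 0.586) and Eprs (-0.09, adjusted p = 0.241) stayed negative and were not called. Without control adipogenic replicate 2, 6 were higher and 3 lower. Of 4 secreted or surface factors, Vldlr and Gdf15 passed the filter on low values, and Vldlr, a lipoprotein receptor, fell in adipogenic medium (-0.43, adjusted p = 0.0230). Rescaling to the same sum of FPKM ended that call (-0.43, adjusted p = 0.0605). Gdf15 was not called, at 20.8, 48.1 and 19.3 FPKM in control and 38.2, 33.0 and 34.3 in knockout adipogenic libraries, with control replicate 2 the highest. Fgf21 was at 0 in all control osteogenic and all knockout adipogenic libraries.

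The ER chaperones and other genes of the unfolded protein response made up a list of 19. Of these, 2 fell in the knockout in osteogenic medium, Edem1 (-0.34) and Xbp1 (-0.34), and 13 fell in adipogenic medium, where 0 rose by limma, by voom or at an unadjusted p under 0.05 (median -0.37). Hsp90b1, an abundant ER chaperone, went from 209, 179 and 224 to 126, 126 and 130 FPKM (-0.67, adjusted p = 0.000102), Sdf2l1 from 87.9, 73.6 and 89.4 to 41.1, 47.3 and 49.9 FPKM (-0.84, adjusted p = 8.2e-05) and Creld2 from 45.0, 38.3 and 45.6 to 27.5, 27.8 and 26.5 FPKM (-0.63, adjusted p = 0.000226). The summed level of the list was 1710 to 2156 FPKM in control and 1418 to 1472 in knockout adipogenic libraries. Rescaling to the same sum of FPKM left 10 lower and 1 higher, and leaving out control adipogenic replicate 2 gave 15 lower and 1 higher. In knockout libraries 5 of the 19 were lower in adipogenic than in osteogenic medium and 0 higher (0 by voom and 3 at an unadjusted p under 0.05), where 8 of the 10 amino acid stress genes were higher. Of all genes tested, 14.0% were lower and 13.9% higher in that comparison. With rescaling to the same sum of FPKM, 3 of the 19 were lower and 2 higher. In control libraries 6 of the 19 were higher and 2 lower in adipogenic medium, beside 10.5 and 12.3% of all genes tested. Rescaling gave 3 higher and 3 lower in control libraries. The sum of the list was 1695 to 1745 FPKM in control osteogenic libraries, so it was also higher in 2 of the 3 control adipogenic libraries than in osteogenic ones. The macrophage sums given above moved with this list in adipogenic medium, and their part in it was not tested.

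**Figure D4:**
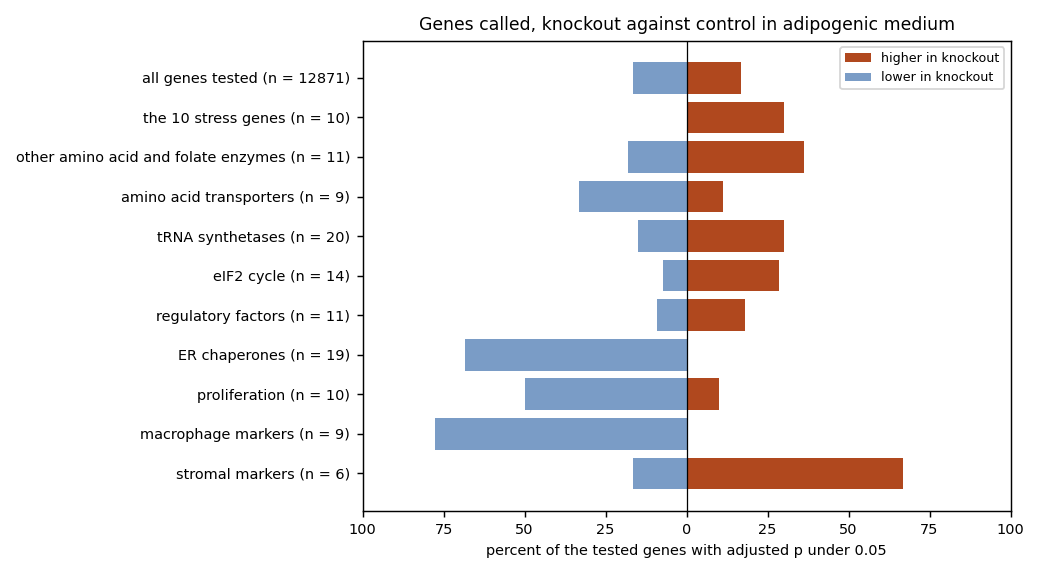
Percent of tested genes called higher (right) or lower (left) in the knockout in adipogenic medium, for all 12871 genes tested, the 10 amino acid stress genes and 9 other lists; n is the number of tested genes. Of the stress genes 30% were higher and none lower, and of the 19 ER chaperones 13 were lower and none higher, beside 16.7% higher and 16.5% lower over all genes.

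**Figure D5:**
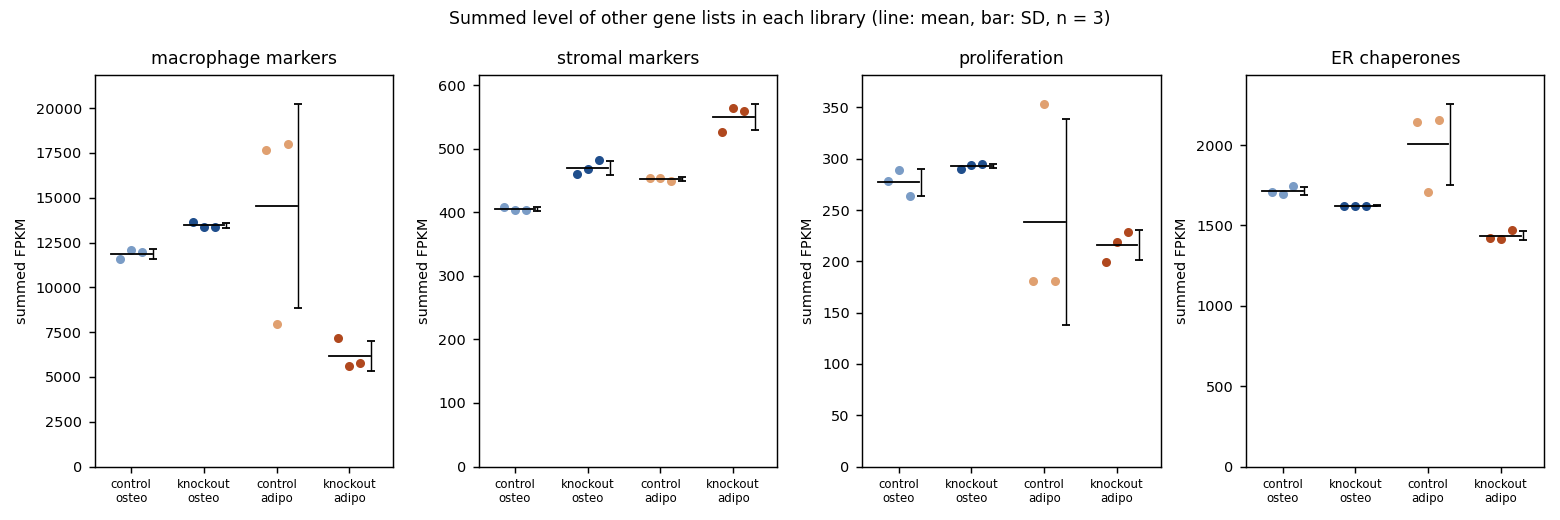
Summed FPKM (y axis, from 0) of macrophage, stromal, proliferation and ER chaperone genes in each library; points are libraries, lines are group means and bars are the SD of 3 libraries. Control adipogenic replicate 2, the middle point of its group, lies far from the other 2 for the macrophage (7944 against 17682 and 18000), proliferation (354 against 181 and 181) and ER chaperone (1710 against 2146 and 2156) sums.

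Across the 12 libraries, the 10 genes did not vary as a single unit. On log2 values, Phgdh was most like Sesn2 (Pearson r = 0.894) and Asns (0.871), and Trib3 was most like Chac1 (0.881), while Psat1 went against Mthfd2 (-0.498) and Shmt2 (-0.433). The genes share libraries, and each r is over 12 libraries in 4 groups, so the values are a description of how group means and single libraries line up. The mean of the 10 standardised genes was highest in the knockout adipogenic libraries, at 1.20, 0.64 and 1.22, and between -0.73 and 0.32 in all others.

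Outside the 10 genes, the genes most like that mean were Rps3, a ribosomal protein (r = 0.951), Parp3 (0.949), Rack1, a scaffold on the ribosome (0.948), Grpel1 (0.948) and Pbxip1 (0.945). Rps3 measured 153, 146 and 152 FPKM in knockout adipogenic libraries and 123 to 134 in all others. Genes most like Atf4 included Arhgdia (0.952), Plac8 (0.943), Ddx23 (0.934) and Rasl11a (0.933). The genes most like Phgdh were looked up after its values were seen: they were Csf1 (0.995), Ptpn14 (0.989), Kcnj15 (0.986), Igsf9b (0.986) and Snx7 (0.986). Csf1, the growth factor of macrophages, measured 128, 161 and 126 FPKM in control and 309.8, 282 and 291 in knockout adipogenic libraries, so control replicate 2 was the highest of its group for Csf1 as for Phgdh.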

How the data were processed

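RNA-seq libraries of MSCs from control and knockout mice after osteogenic or adipogenic induction were grouped by their labels, with 3 libraries per group. The authors deposited a single table of FPKM per gene, with a column for each library. The submitters' processing notes name Bowtie 0.12.2 and mm9, while the software list of the study names HISAT2 and Ballgown; annotation, use of strand and filters are not given in the sources used here. Identifiers were matched to GENCODE M21 (GRCm38).

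Fragments were recovered from FPKM and exonic lengths: 98.2 to 98.4% of values under 30 fragments came out whole within 0.02. The FPKM of a library summed to 295244 to 380097. Counts of fragments give counting error only, since copies made by amplification are not independent.

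The tests used limma 3.58.1 (R 4.3.3) for 5 contrasts of the 4 group means, with values as log2(FPKM + 1), variances moderated along a trend and Benjamini-Hochberg adjustment. They covered the 12871 genes that reached 1 FPKM in 3 or more libraries. A fold on this scale understates the change of low genes. The script was tested on simulated data. Other settings were a pseudocount of 0.1, no filter, rescaling to the same sum of FPKM (TPM), no trend, only the libraries compared, a replicate block, voom on recovered fragments and each library left out. Of the rescaling and of leaving out control adipogenic replicate 2, the effect on the other gene lists was added after seeing the data. The 10 genes and the lists were chosen with earlier results of these data known. From each list, the 3 called genes with the smallest p per direction could be named. Promoter windows came from RefSeq (GRCm38.p6). All mapped columns were used. Of the genes most like Atf4, 1 is not reported here.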

Additional observations from a re-analysis of the deposited data

Results flagged for a closer look

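The genotype difference differed between the media by the interaction test for 2 of the 10 genes, beside 20.4% of all genes tested. For Phgdh the difference in adipogenic medium exceeded that in osteogenic medium by 1.02 on the log2(FPKM + 1) scale (adjusted p = 0.00074), with 1.23 in adipogenic and 0.21 in osteogenic medium. For Atf4 it exceeded it by 0.32 (adjusted p = 0.0114), with 0.13 in adipogenic and -0.19 in osteogenic medium. Leaving out any 1 of the 12 libraries gave interactions of 0.94 to 1.14 for Phgdh and 0.28 to 0.36 for Atf4. Groups of 3 libraries are too small for a test of single outlying libraries.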

How the results depend on the processing

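Of 700 values of single genes under other settings, 641 kept their direction and side of the threshold, 28 lost and 13 gained a call, and 18 changed sign, none of which was called. The cause of these changes was not tested. In osteogenic medium, 2 genes were called, against 1 without the filter and without the trend and 0 with rescaling to the same sum of FPKM, and 3 with only the libraries compared. In adipogenic medium, 3 were called, against 5 with rescaling, which moved the median of all genes by 0.17. Between media in control libraries, 1 was called, against 0 without the filter, with rescaling and with only the libraries compared. With 1 library left out, the counts were 1 to 1 and 2 to 5 for the knockout in osteogenic and adipogenic medium, 2 to 4 for the interaction, 0 to 5 between media in control and 7 to 8 in knockout libraries. Without control adipogenic replicate 2 they were 5, 4 and 5 for the knockout in adipogenic medium, the interaction and the media in control libraries. The share of all genes called also grew without that library, to 51.0, 42.2 and 47.8% in these 3 comparisons. Over all settings this share was 2.89 to 26.6% and 12.5 to 51.0% for the knockout in osteogenic and adipogenic medium, 6.79 to 42.2% for the interaction, and 3.81 to 47.8% and 10.7 to 37.4% between media in control and knockout libraries.

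With the replicate block, 2 genes were called between media in control libraries (Mthfd2 and Shmt2), and in the other comparisons 2, 3, 2 and 8, as without it. To look for pairing, the group mean of each gene was subtracted from its log2 values. What was left in same-numbered libraries of the genotypes had correlations of -0.04, 0.06 and -0.03 in osteogenic and 0.47, 0.40 and -0.29 in adipogenic medium. For same-numbered libraries of the media they were -0.06, 0.09 and 0.04 in control and 0.03, -0.01 and -0.02 in knockout libraries. Not every library was most like its own number, so the numbers were not taken to pair the libraries.

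The changes of sign were these, on the log2 scale. With rescaling, Shmt2 turned to 0.117 for the knockout in adipogenic medium, 0.0027 for the interaction and 0.0474 between media in knockout libraries, and Atf4 to -0.0903, Ddit3 to -0.0105 and Sesn2 to -0.0091 between media in control libraries. With 1 library left out, the differences ranged over both signs: from -0.0141 to 0.0651 for Psat1 (knockout, osteogenic medium), -0.0142 to 0.240 for Trib3 and -0.0129 to 0.168 for Mthfd2 (knockout, adipogenic medium), -0.0454 to 0.135 for Mthfd2 (interaction), -0.0026 to 0.180 for Ddit3 and -0.139 to 0.0628 for Phgdh (media, control libraries), and -0.0644 to 0.0385 for Shmt2 (media, knockout libraries).

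At 86 to 159 fragments, Chac1 was the least precisely counted of the 10 genes.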
